A study of Homo sapiens with 9 samples.

Results

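The amino acid transporter genes described here are the protein-coding genes of the solute carrier families SLC1, SLC3, SLC6, SLC7, SLC36, SLC38 and SLC43, chosen by gene symbol and biotype, and they number 59 of the 58735 genes in the deposited table. Transcript levels were measured in MDA-MB-231 cells, a widely used human line from a triple-negative breast cancer with mesenchymal features, labelled as wild type. Each of 3 groups held 3 libraries. In No CM the cells were given plain medium, in Cont CM medium conditioned by non-senescent MDA-MB-231 cells, and in TIS CM (therapy-induced senescence) medium from MDA-MB-231 cells that 72 h in 100 ng/ml nocodazole, a microtubule-depolymerizing drug, had made senescent. The recipient cells of all groups came from a culture kept in DMEM with serum, and the labels do not say whether traces of the drug were removed from the TIS CM. Time in the medium is 72 h in the sample labels and 48 h in the design text, and nothing in the table settles which applies. The labels number the libraries of a group but do not say that they were separate cultures, so p-values reflect the scatter of these libraries alone, which may be technical.

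Animal cells take up amino acids through carriers, many of which couple the substrate to sodium, to protons or to the exchange of another amino acid. SLC7A5 is the light chain of the system L exchanger, which brings in leucine and other large neutral amino acids and sits at the cell surface with the glycoprotein heavy chain SLC3A2. SLC1A5 and SLC1A4 exchange glutamine and small neutral amino acids, SLC7A11 brings in cystine in exchange for glutamate, and several SLC38 and SLC36 proteins carry neutral amino acids at the surface or across the lysosomal membrane. Leucine and arginine taken up in these ways are sensed by the mTORC1 kinase pathway, and a shortage of amino acids acts through the kinase GCN2 and the transcription factor ATF4, which raises the transcription of several carrier genes.

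ATF4 binds amino acid response elements with the core TGATGNAA, and this core was searched on both strands in the 250 bases before each transcription start in the RefSeq promoter table (GRCh38.p14). Of 35116 windows of that length, 1104 held it (3.14%). The table held windows for 44 of the 59 carrier genes, 22 of them among the 26 expressed highly enough to be tested, and 2 of the 40 windows of these 22 genes held the core. Those stretches, 30 bases each on the gene's own strand with the core in capitals, lie at chr19:46784893-46784922 (minus strand, SLC1A5, the core 97 to 90 bases before a start that lies 3780 bases inside the gene) and at chr5:36596357-36596386 (plus strand, SLC1A3, 220 to 213 bases before a start 9767 bases upstream of the gene start in the deposited table). They are the only stretches with the core in the windows of the 44 carrier genes, and were not picked by expression:
SLC1A5: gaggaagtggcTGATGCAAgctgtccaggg
SLC1A3: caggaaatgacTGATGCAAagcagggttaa
A match is a description of letters, not a bound site, and the core was absent from the windows searched for SLC7A5, SLC1A4 and SLC43A2. SLC7A11 and SLC43A3 were among the genes not in the promoter table.

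Libraries held 32636708 to 39189036 fragments on genes, of which the 59 carrier genes took 0.2456% to 0.2679%. Values are FPKM, fragment counts divided by gene length and library size, so comparisons between genes depend on the gene length used. VIM and the surface receptor AXL marked the mesenchymal line (345 to 401 and 195 to 218 FPKM), and oestrogen receptor ESR1 stayed at or below 0.00801 FPKM. EPCAM, an epithelial marker, was present at 7.58 to 10.1 FPKM, and the epithelial cadherin CDH1 averaged 1.17 FPKM in No CM against 0.299 in Cont CM and 0.438 in TIS CM. GATA3, listed beforehand as low or absent in such a line, was present at 4.67 to 6.72 FPKM. The summed level of the immune markers, nearly all CD14, lay between 3.14 and 3.64 FPKM in Cont CM against 4.04 to 5.19 in No CM and 4.18 to 4.88 in TIS CM, while the general leukocyte marker PTPRC did not exceed 0.0277. Of 4 fibroblast markers DCN was at 0 throughout, and their sum was 1.27 to 1.46 FPKM in Cont CM against 1.56 to 1.87 and 1.60 to 1.86 in No CM and TIS CM. That sum was mostly PDGFRB, with means of 1.43, 0.989 and 1.44 FPKM in No CM, Cont CM and TIS CM. LUM went the other way, with means of 0.239, 0.387 and 0.254 FPKM in the same order. The part of these genes in the results was not tested, and in bulk RNA fewer cells of a type and less RNA per cell cannot be told apart. A pair of libraries stood apart. Cont CM replicate 1 lay at -19.32 on the second principal component, which held 17.6% of the variance, against 13.44 and 7.62 for the other Cont CM libraries. In Cont CM replicate 2 a trend with GC content and gene length accounted for 17.7% of the variance around the gene means, against 0.622% to 5.48% in the other 8 libraries.

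Of the 59 carrier genes, 26 had a mean of at least 0.5 FPKM over the 9 libraries and were tested, 21 were present below that level and 12 were at 0 in every library. The tested share differed by family. All 3 SLC43 genes and 7 of 11 SLC38 genes passed, 4 of 7 SLC1 genes, 6 of 13 SLC7 genes, 2 of 4 SLC36 genes and 1 of 2 SLC3 genes, but 3 of 19 SLC6 genes, the family that holds the neurotransmitter carriers. Transcripts were concentrated on few genes. SLC7A5, SLC38A2, SLC1A5, SLC43A3 and SLC3A2 together held 63.46% to 70.05% of the summed carrier FPKM in each library. That sum was 439, 448 and 445 FPKM in No CM, 438, 406 and 409 in Cont CM, and 449, 448 and 460 in TIS CM. Every Cont CM library lay below every No CM and TIS CM library, but Cont CM replicate 1 only narrowly (438.21 against 439.05 in No CM replicate 1). By share of fragments that order did not hold. Cont CM replicate 1, at 0.2664%, lay above all No CM libraries (0.2574% to 0.2626%), while Cont CM replicates 2 and 3 were lowest (0.2459% and 0.2456%). SLC1A1 (mean 0.612 FPKM) lay just above the minimum and SLC7A4 (mean 0.497 FPKM) just below it.

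**Figure D1:**
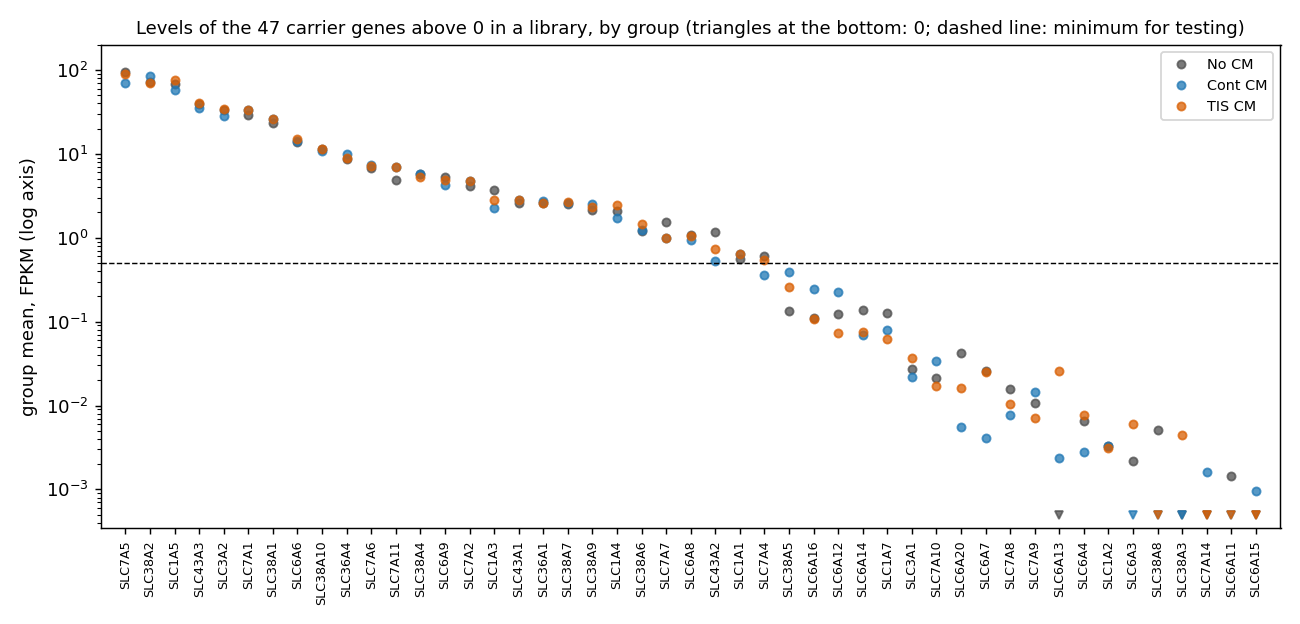
Mean FPKM (vertical axis, log scale) of the 47 carrier genes above 0 in at least 1 library, in No CM, Cont CM and TIS CM, ordered by level. Triangles mark groups at 0 in all 3 libraries and the dashed line the mean of 0.5 FPKM above which genes were tested. 26 genes lie above it on average over the 9 libraries.

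In each comparison limma was fitted to log2(FPKM + 0.5) of all 13912 tested genes, with p-values adjusted over all of them, and genes with an adjusted p under 0.05 were called. Fold changes are on that scale, which understates those of low genes. Comparing TIS CM with Cont CM, 4 of the 26 carrier genes were called higher, none was called lower and 22 did not pass. That is 15.4% called, where 4.48% of all tested genes were called, 2.9% higher and 1.57% lower. By unadjusted p under 0.05, 8 of the 26 differed, against 23.4% of all genes. On the same measure 13 differed in Cont CM against No CM and 6 in TIS CM against No CM, against 31.3% and 13.6% of all genes. Between Cont CM and No CM, 9 of 26 were called (34.6%, against 16.3% of all tested genes), with 3 higher (7.77% of all genes) and 6 lower (8.56% of all genes). Only 1 of 26 was called in TIS CM against No CM, higher (3.85%, against 0.855% of all genes called and 0.403% called higher), and 25 did not pass. The median log2 difference of the 26 genes was 0.03, 0.01 and 0.04 in the 3 comparisons, and that of all tested genes 0.00 in size each time. Groups did not overlap for 10 of the 26 carrier genes in TIS CM against Cont CM, 11 in Cont CM against No CM and 13 in TIS CM against No CM, while they did not overlap for 28.6%, 33.3% and 24.4% of all tested genes. Each pair of comparisons shares a group of libraries, so their values are given side by side and not as separate support for one another.

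**Figure D2:**
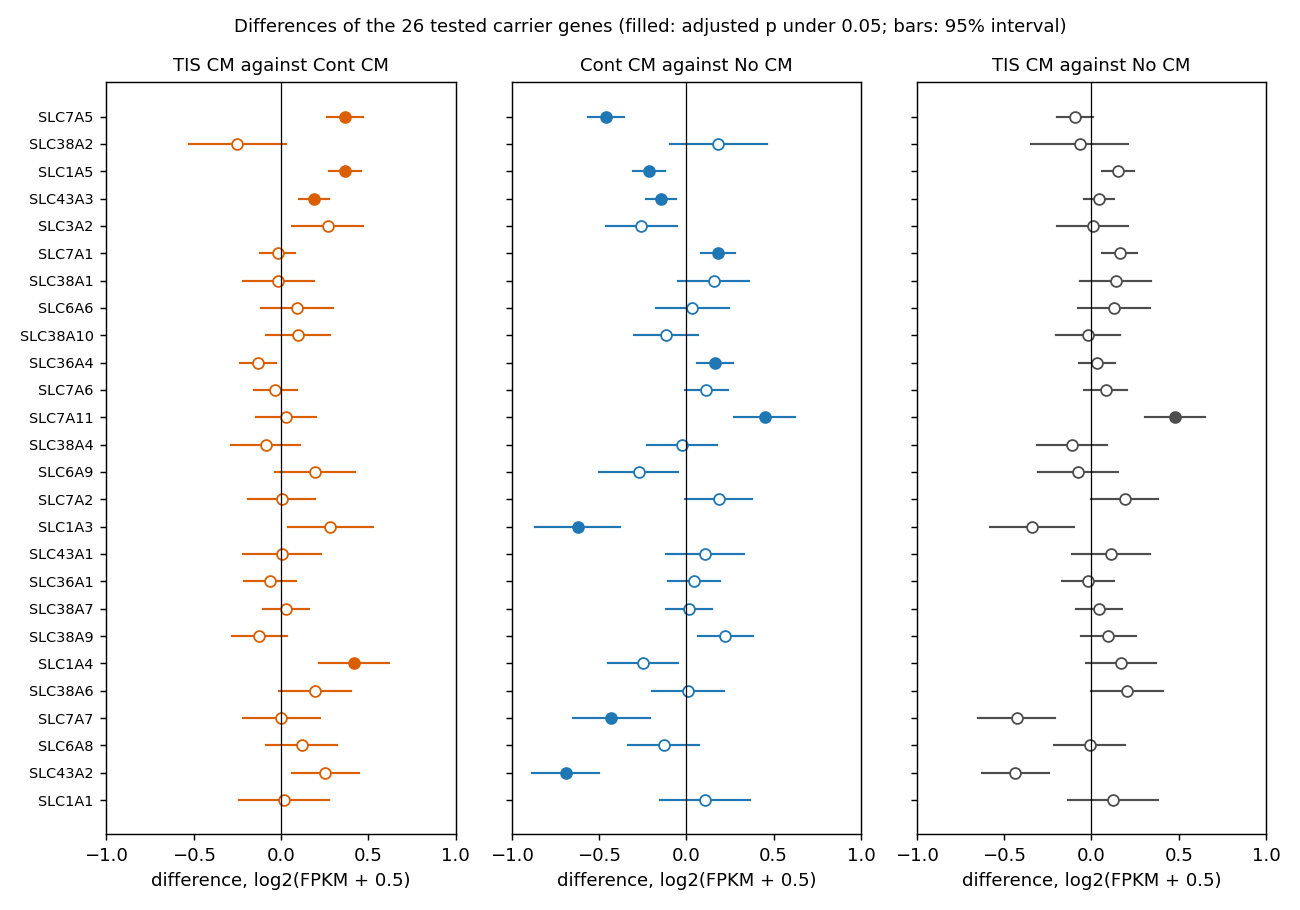
Difference of each of the 26 tested carrier genes in each comparison on the scale log2(FPKM + 0.5), with its 95% interval from limma. Filled points have an adjusted p under 0.05. There are 4 filled points in TIS CM against Cont CM, 9 in Cont CM against No CM and 1, SLC7A11, in TIS CM against No CM.

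The counts moved when libraries were left out. Without Cont CM replicate 1 the called carrier genes numbered 5, 11 and 3 in TIS CM against Cont CM, Cont CM against No CM and TIS CM against No CM, and without Cont CM replicate 2 they numbered 2, 5 and 1. Over all 13912 tested genes the calls moved too, from 623, 2272 and 119 with all 9 libraries. They numbered 1084, 2770 and 365 without Cont CM replicate 1, and 99, 1616 and 139 without Cont CM replicate 2. The call of SLC43A3 and SLC1A4 in TIS CM against Cont CM was lost without Cont CM replicate 2. No carrier gene was called in that comparison without TIS CM replicate 1, where 11 of all tested genes were called. SLC7A5, SLC43A2, SLC1A3, SLC1A5 and SLC7A11 were called in Cont CM against No CM whichever of the 9 libraries was left out.

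The system L light chain SLC7A5 (chromosome 16, 87830023 to 87869488, hg38, minus strand), the most abundant carrier transcript on average over the 9 libraries (in Cont CM the mean of SLC38A2 was higher), was lowest in cells given control conditioned medium. It stood at 92.5, 96.1 and 96.5 FPKM in No CM, 71.5, 64.5 and 71.0 in Cont CM, and 87.0, 91.4 and 88.6 in TIS CM. No 2 groups overlapped, and TIS CM lay between the other two, nearer to No CM. From No CM to Cont CM the level fell 1.38-fold (log2 difference -0.46, SE 0.05, limma adjusted p = 0.000458). In TIS CM it was 1.29-fold higher than in Cont CM (0.37, SE 0.05, limma adjusted p = 0.00997). The latter call was lost when TIS CM replicate 1 or 2 was left out (limma adjusted p = 0.0535 and 0.0576), at differences of 0.38 and 0.35. TIS CM against No CM had a difference of -0.09, with a 95% interval from -0.20 to 0.01. Fragments of the near-identical pseudogene copies SLC7A5P1 and SLC7A5P2, both listed at 0, and of the antisense gene AC126696.2 (3.10 FPKM) could not be separated from those of SLC7A5, because no source used here gives the handling of strand and of multiply aligned reads.

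The heavy chain SLC3A2 (chromosome 11, 62856102 to 62888875), partner of SLC7A5 and of the other SLC7 light chains SLC7A6, SLC7A7 and SLC7A11, was not called in any comparison. Its values were 30.3, 34.6 and 36.1 FPKM in No CM, 31.98, 25.1 and 27.3 in Cont CM, and 32.8, 33.1 and 35.4 in TIS CM. The TIS CM libraries all lay above the Cont CM libraries, and No CM overlapped both. The difference of TIS CM from Cont CM was 0.27 (SE 0.09, limma adjusted p = 0.121), and without Cont CM replicate 1 it passed (0.36, limma adjusted p = 0.0299). Cont CM against No CM gave -0.26 (limma adjusted p = 0.0849), which also passed without Cont CM replicate 1 (-0.35, limma adjusted p = 0.0138). There were 2.68 to 3.05 FPKM of SLC7A5 for each FPKM of SLC3A2 in No CM, 2.24 to 2.60 in Cont CM and 2.501 to 2.76 in TIS CM.

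**Figure D3:**
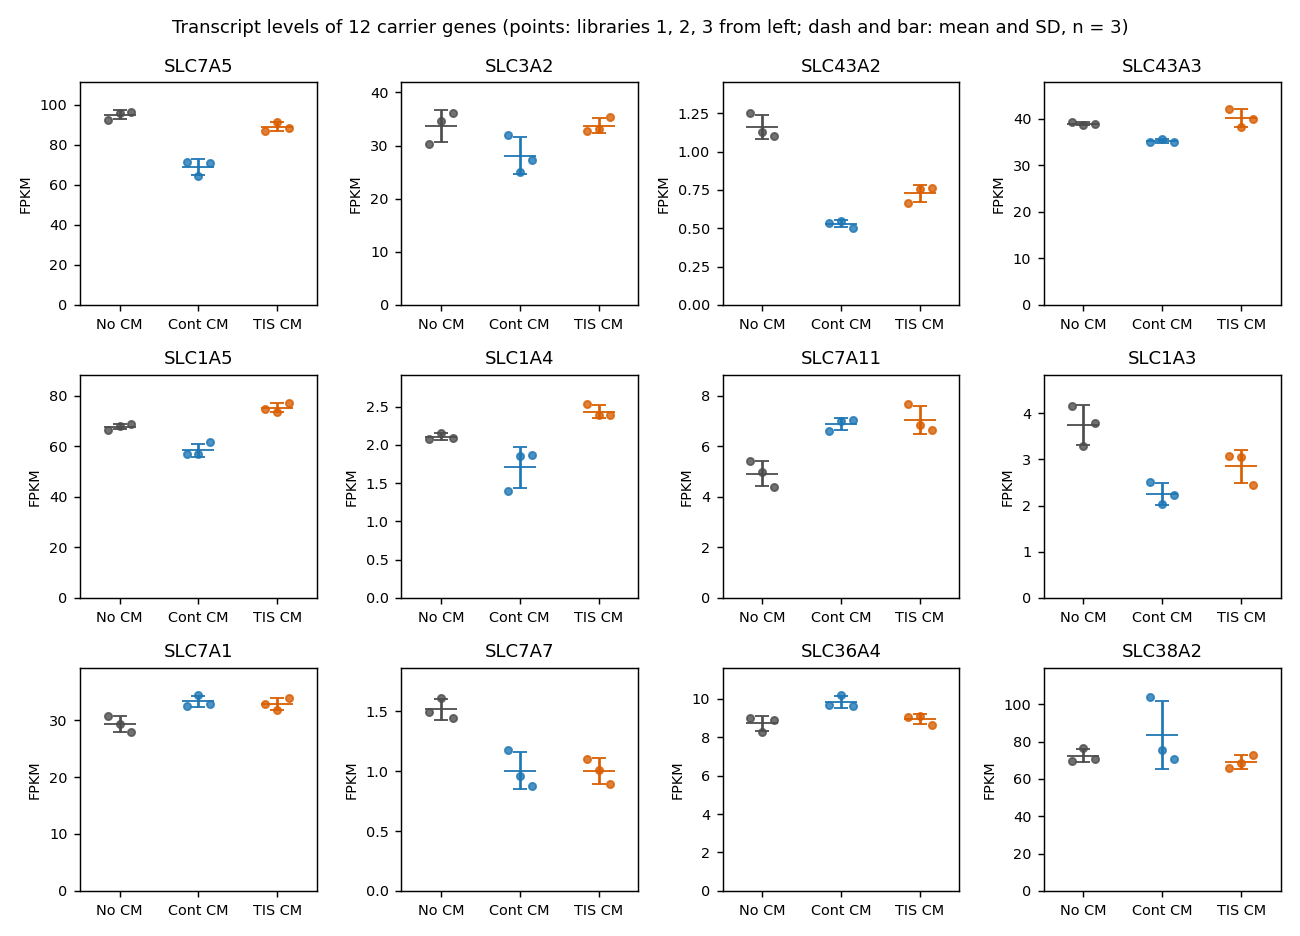
FPKM (vertical axis, from 0) of 12 carrier genes in each library of No CM, Cont CM and TIS CM. Points are libraries, the dash is the group mean and the bar the SD (n = 3). SLC7A5, SLC1A5, SLC1A4 and SLC43A3 are lowest in Cont CM, SLC7A11 and SLC7A1 are lowest in No CM, and SLC38A2 has 1 Cont CM library, at 104 FPKM, far above the other libraries.

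The facilitators of large neutral amino acids, SLC43A1 and SLC43A2, need no heavy chain. SLC43A2 (chromosome 17, 1569267 to 1628886) was present at 1.25, 1.13 and 1.10 FPKM in No CM, 0.537, 0.550 and 0.503 in Cont CM, and 0.666, 0.754 and 0.761 in TIS CM, with no overlap between any 2 groups. It had the largest fall among the tested carrier genes in Cont CM against No CM, 1.61-fold (-0.69, SE 0.09, limma adjusted p = 0.00143). Because the level is close to the added 0.5 FPKM, that fold is understated, and voom on the recovered fragments gave a log2 difference of -1.13. TIS CM had a difference of 0.25 from Cont CM (limma adjusted p = 0.118) and of -0.44 from No CM (limma adjusted p = 0.0609), and both passed with voom on the recovered fragments (0.46 and -0.67, adjusted p = 0.0295 and 0.00302). SLC43A1, the close relative, did not pass in any comparison, with 2.88, 2.25 and 2.68 FPKM in No CM, 2.41, 3.07 and 3.05 in Cont CM, and 2.87, 2.90 and 2.76 in TIS CM. Its differences were 0.01 between TIS CM and Cont CM, and 0.11 between Cont CM and No CM, and the groups overlapped. The summed FPKM of the 4 system L light chains and facilitators, nearly all SLC7A5, was 96.6 to 100.3 in No CM, 68.1 to 74.6 in Cont CM and 90.6 to 95.02 in TIS CM.

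SLC43A3, the third member of that family, is known as a carrier of purine nucleobases and not of amino acids. Its levels were 39.3, 38.7 and 38.8 FPKM in No CM, 35.0, 35.6 and 35.0 in Cont CM, and 42.1, 38.3 and 40.0 in TIS CM. Cont CM lay below both other groups, which overlapped. The gene fell 1.10-fold in Cont CM against No CM (-0.14, SE 0.04, limma adjusted p = 0.0345) and was 1.14-fold higher in TIS CM than in Cont CM (0.19, SE 0.04, limma adjusted p = 0.0331). Both calls were close to the threshold. The first was kept in 3 of the 9 omissions of a library and the second in 1, with limma adjusted p up to 0.0952 and 0.113.

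The glutamine exchanger SLC1A5 (chromosome 19, 46774883 to 46788594, minus strand), one of the genes shown above with a response element core, was highest in cells given the medium of senescent cells. Its levels were 66.5, 68.0 and 68.8 FPKM in No CM, 56.8, 56.8 and 61.5 in Cont CM, and 74.9, 73.7 and 77.2 in TIS CM. All TIS CM libraries lay above all No CM libraries, and these above all Cont CM libraries. Relative to Cont CM it rose 1.29-fold in TIS CM (0.36, SE 0.04, limma adjusted p = 0.00731), the smallest adjusted p among the carrier genes in that comparison. Relative to No CM it fell 1.16-fold in Cont CM (-0.21, SE 0.04, limma adjusted p = 0.0085). TIS CM against No CM gave 0.15 (95% interval 0.06 to 0.24, limma adjusted p = 0.146). SLC1A5 overlaps the antisense gene AC008622.2, which stood well below it (6.47 FPKM).

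SLC1A4 (chromosome 2, 64988477 to 65023865), which exchanges serine, alanine and other small neutral amino acids, lay in the same order at a lower level. It stood at 2.08, 2.16 and 2.09 FPKM in No CM, 1.40, 1.86 and 1.87 in Cont CM, and 2.53, 2.38 and 2.38 in TIS CM, with no overlap between groups. Cont CM replicate 1 was the lowest library. The rise in TIS CM against Cont CM was 1.33-fold (0.42, SE 0.09, limma adjusted p = 0.0382), and without Cont CM replicate 1 it was 0.31 (limma adjusted p = 0.0267). The call held in 2 of the 9 omissions of a library, with limma adjusted p up to 0.127. Cont CM against No CM did not pass (-0.25, limma adjusted p = 0.0935). Summed with SLC7A10, an exchanger of small neutral amino acids with at most 0.0682 FPKM, the 3 exchangers stood at 68.6 to 70.9 FPKM in No CM, 58.3 to 63.4 in Cont CM and 76.1 to 79.6 in TIS CM.

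**Figure D4:**
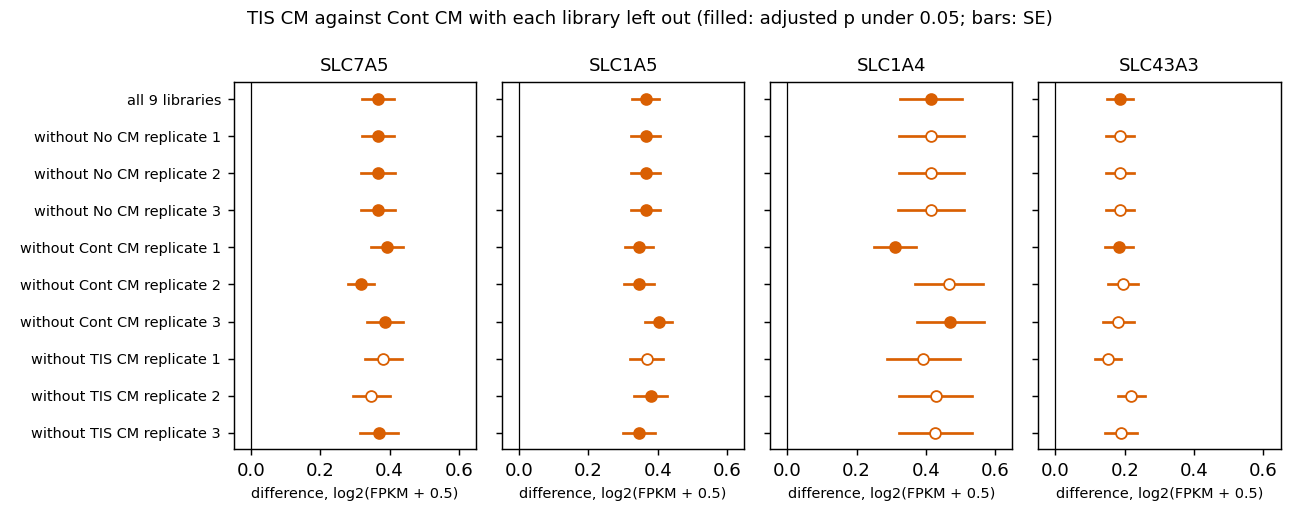
Difference of TIS CM from Cont CM on the scale log2(FPKM + 0.5), with its SE, for the 4 carrier genes called in that comparison, with all 9 libraries and with each left out. Filled points have a limma adjusted p under 0.05. Every difference is above 0, SLC1A5 is called in 8 of the 9 omissions, SLC7A5 in 7, SLC1A4 in 2 and SLC43A3 in 1.

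The cystine and glutamate exchanger light chain SLC7A11 (chromosome 4, 138164097 to 138242349, minus strand), which supplies cystine for glutathione, was higher in both conditioned media than in plain medium. Its levels were 5.41, 4.98 and 4.39 FPKM in No CM, 6.62, 7.01 and 7.05 in Cont CM, and 7.68, 6.83 and 6.64 in TIS CM. Both conditioned groups lay above No CM and overlapped each other. The rise was 1.37-fold in Cont CM (0.45, SE 0.08, limma adjusted p = 0.00577) and 1.39-fold in TIS CM (0.48, SE 0.08, limma adjusted p = 0.0345). SLC7A11 was the only carrier gene called in TIS CM against No CM, and that call was lost in 7 of the 9 omissions of a library (limma adjusted p up to 0.135) at differences of 0.41 to 0.54 over all 9. TIS CM against Cont CM gave 0.03, with a 95% interval from -0.15 to 0.20.

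SLC1A3 (chromosome 5, 36606355 to 36688334), the other gene shown with a response element core, takes up glutamate and aspartate with sodium and is known from glia. It stood at 4.15, 3.28 and 3.78 FPKM in No CM, 2.51, 2.03 and 2.22 in Cont CM, and 3.07, 3.04 and 2.44 in TIS CM. No CM lay above both conditioned groups, which overlapped. The fall in Cont CM against No CM was 1.54-fold (-0.62, SE 0.11, limma adjusted p = 0.00583). TIS CM differed from Cont CM by 0.28 (limma adjusted p = 0.155) and from No CM by -0.34 (limma adjusted p = 0.206), so neither passed. SLC1A1, a glutamate carrier that also takes cysteine, stayed between 0.472 and 0.785 FPKM over the 9 libraries and was not called. The glutamate carriers SLC1A2 and SLC1A7 were below the minimum and SLC1A6 was at 0.

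Among carriers of cationic amino acids, SLC7A1, the main arginine and lysine carrier of most cells, was higher in Cont CM than in No CM. It stood at 30.7, 29.3 and 28.0 FPKM in No CM, 32.5, 34.5 and 32.9 in Cont CM, and 32.9, 31.8 and 33.9 in TIS CM, with No CM below both conditioned groups. The rise in Cont CM was 1.13-fold (0.18, SE 0.04, limma adjusted p = 0.0242), and it was kept in 5 of the 9 omissions of a library (limma adjusted p up to 0.0916). TIS CM against No CM gave 0.16 (limma adjusted p = 0.148) and TIS CM against Cont CM -0.02. SLC7A2, a related arginine carrier, lay between 3.88 and 5.17 FPKM and was not called.

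SLC7A7 and SLC7A6, light chains of system y+L, exchange cationic for neutral amino acids and differed from each other in level and pattern. SLC7A7 stood at 1.499, 1.62 and 1.44 FPKM in No CM, 1.18, 0.957 and 0.880 in Cont CM, and 1.10, 1.01 and 0.890 in TIS CM. Both conditioned groups lay below No CM. It fell 1.35-fold in Cont CM against No CM (-0.43, SE 0.10, limma adjusted p = 0.019), a call kept in 4 of the 9 omissions (limma adjusted p up to 0.0635). Between TIS CM and No CM the difference was also -0.43 but did not pass (limma adjusted p = 0.0985), and it did pass with voom on the recovered fragments (-0.61, adjusted p = 0.031). SLC7A6 lay between 6.48 and 7.97 FPKM, overlapping SLC7A6OS on the opposite strand (5.58 FPKM), and was not called.

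None of the 7 tested SLC38 genes, most of them carriers of glutamine and small neutral amino acids, was called in any comparison. SLC38A2 (chromosome 12, 46358189 to 46372867), the sodium-coupled carrier known to rise on amino acid starvation, stood at 69.9, 76.4 and 70.8 FPKM in No CM, 104, 75.5 and 70.6 in Cont CM, and 65.8, 68.6 and 72.8 in TIS CM. Cont CM replicate 1 alone was high, and the remaining libraries of the 3 groups overlapped. Its difference of TIS CM from Cont CM was -0.25 with all libraries and -0.08 without Cont CM replicate 1. Cont CM against No CM gave 0.18 and, without that library, 0.01. SLC38A1, a further sodium-coupled glutamine carrier, stood at 25.6, 22.8 and 21.6 FPKM in No CM, 23.5, 29.8 and 25.2 in Cont CM, and 26.5, 24.2 and 26.5 in TIS CM, and all groups overlapped.

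SLC38A9, the lysosomal carrier that reports arginine to mTORC1, stood at 2.31, 2.03 and 2.01 FPKM in No CM, 2.55, 2.65 and 2.45 in Cont CM, and 2.35, 2.41 and 2.14 in TIS CM. Every Cont CM library lay above every library of the other groups. The difference of Cont CM from No CM missed the threshold (0.22, SE 0.07, limma adjusted p = 0.0584), and it passed when only protein-coding genes were tested (limma adjusted p = 0.0356) and with voom on the recovered fragments (0.27, adjusted p = 0.026). The remaining tested members ranged from 9.25 to 12.03 FPKM for SLC38A10, 4.99 to 6.69 for SLC38A4, 2.51 to 2.81 for SLC38A7, a lysosomal glutamine carrier, and 1.09 to 1.49 for SLC38A6, which overlaps TRMT5 on the opposite strand (6.82 FPKM).

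Of the SLC36 carriers, SLC36A4, known to carry proline and tryptophan, was higher in Cont CM than in No CM. It stood at 9.01, 8.29 and 8.87 FPKM in No CM, 9.69, 10.2 and 9.61 in Cont CM, and 9.06, 9.09 and 8.62 in TIS CM, so Cont CM lay above both other groups, which overlapped. The rise was 1.12-fold (0.16, SE 0.05, limma adjusted p = 0.0412), and it was kept only without Cont CM replicate 1 among the 9 omissions (limma adjusted p up to 0.126). TIS CM against Cont CM gave -0.13 (limma adjusted p = 0.127). SLC36A1, a proton-coupled carrier of the lysosomal membrane, stood at 2.41, 2.69 and 2.78 FPKM in No CM, 2.58, 2.85 and 2.72 in Cont CM, and 2.47, 2.59 and 2.69 in TIS CM. All groups overlapped and it was not called.

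The 3 tested SLC6 genes were not called in any comparison. The taurine carrier SLC6A6 lay between 11.9 and 16.1 FPKM, the glycine carrier SLC6A9 between 3.93 and 5.77 and the creatine carrier SLC6A8 between 0.855 and 1.24. SLC6A8 has the near-identical copy SLC6A10P, listed at 0, and its value is uncertain. Other SLC6 carriers of neurotransmitters lay below the tested level. SLC6A2 (noradrenaline) and SLC6A5 (glycine) were at 0. The dopamine and serotonin carriers SLC6A3 and SLC6A4 stood at no more than 0.0118 and 0.0198 FPKM in any library. SLC6A12, grouped with the carriers of GABA and betaine, reached 0.413 FPKM in Cont CM replicate 1.

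The differences of the carrier genes moved with the GC content of their longest transcript. Across the 26 genes, which share the same libraries, Pearson's r with GC content was 0.536 for TIS CM against Cont CM and -0.535 for Cont CM against No CM, and across all tested genes with a GC value it was 0.332 and -0.259, given as descriptions. SLC7A5 and SLC1A5 had 61.1% and 61.3% GC and SLC7A11 and SLC36A4 35.4% and 35.0%, around a median of 50.9% for the carrier genes and 48.5% for all. With each library's trend on GC content and length removed, SLC7A5 and SLC1A5 were still called in TIS CM against Cont CM at smaller differences (0.27 and 0.26 in place of 0.37 and 0.36, limma adjusted p = 0.0195 and 0.0294). SLC1A4 was also still called (0.46, limma adjusted p = 0.0388), and SLC43A3 was not (0.16, limma adjusted p = 0.07). Over all tested genes, 173 were called in TIS CM against Cont CM with the trend removed, in place of 623. In Cont CM against No CM it was 2121 in place of 2272. Of the 9 carrier genes called in Cont CM against No CM, 6 were still called. SLC1A5 (-0.12, limma adjusted p = 0.0912), SLC43A3 (-0.11, limma adjusted p = 0.0748) and SLC36A4 (0.10, limma adjusted p = 0.138) were not.

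**Figure D5:**
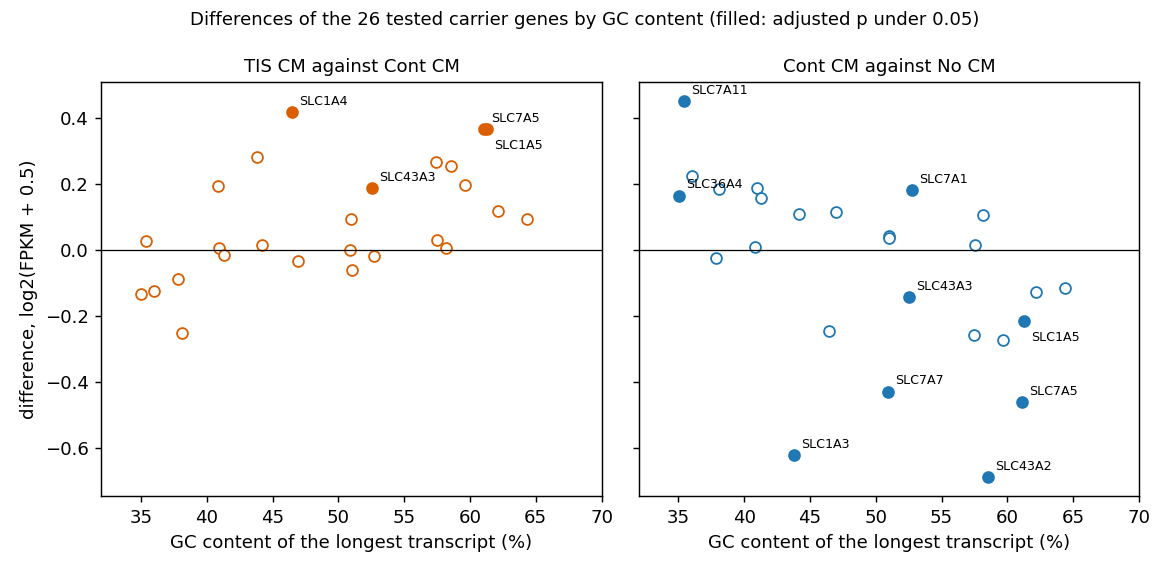
Difference on the scale log2(FPKM + 0.5) of the 26 tested carrier genes against the GC content of the longest transcript, in TIS CM against Cont CM and in Cont CM against No CM. Filled, named points have a limma adjusted p under 0.05. Genes of high GC content tend to lie above 0 in the first and below 0 in the second panel (Pearson's r 0.536 and -0.535).

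Below the tested level, 12 genes had no fragment in any library and 21 had between 1 and 392 fragments summed over the 9 libraries, 7 of them fewer than 10. Those at 0 included SLC1A6, SLC6A2, SLC6A5, SLC6A17, SLC6A18, SLC6A19, SLC7A3, SLC7A13, SLC36A2, SLC36A3 and SLC38A11. Those with enough fragments were tested in a voom fit to recovered fragments of the 16518 genes with a mean of at least 10, chosen after the data were seen. SLC38A5, a carrier of glutamine, serine and histidine, had 57, 171 and 114 fragments summed over No CM, Cont CM and TIS CM, and stood at 0.0896, 0.194 and 0.116 FPKM, at 0.385, 0.410 and 0.388, and at 0.268, 0.214 and 0.296. No groups overlapped. It was 3.06-fold higher in Cont CM than in No CM (log2 difference 1.61, SE 0.30, limma voom adjusted p = 0.00203, where 16.7% of genes were called), and limma on log2(FPKM + 0.5) with no filter on low values also called it, alone among the genes below the minimum. TIS CM differed from No CM by 1.00 (limma voom adjusted p = 0.153) and from Cont CM by -0.61 (limma voom adjusted p = 0.165). SLC7A4 (156, 92 and 144 fragments in No CM, Cont CM and TIS CM), SLC6A16 (42, 92 and 42), SLC6A12 (69, 126 and 43), SLC6A14 (67, 34 and 37) and SLC1A7 (73, 47 and 37) were not called in that fit in any comparison.

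Other genes of amino acid handling were counted from lists made for this purpose. Their counts are to be read against all tested genes, of which 4.48% were called in TIS CM against Cont CM, 16.3% in Cont CM against No CM and 0.855% in TIS CM against No CM, so a count near these shares is no result about a list. Of 33 tested genes that sense amino acids upstream of mTORC1, 2 were higher in TIS CM than in Cont CM and 31 did not pass, and 1 was higher, 4 were lower and 28 did not pass in Cont CM against No CM, both near the shares over all genes. LAMTOR4 and LAMTOR2, subunits of the Ragulator complex that anchors the pathway on the lysosome, rose in the first comparison (0.30 and 0.26) and fell in the second (-0.37 and -0.18), and the cytosolic arginine sensor gene CASTOR2 was higher in Cont CM than in No CM (0.41). Median log2 differences of the list were 0.01 and -0.05, and none of its genes was called in TIS CM against No CM.

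Of 18 tested genes of the GCN2 branch and its ATF4 targets other than carriers, TIS CM against Cont CM had 3 higher and 1 lower, and 14 did not pass. Of all tested genes, 4.48% were called in that comparison. PSAT1, of serine synthesis (0.51), SHMT2, of mitochondrial glycine and folate metabolism (0.28), and PYCR1, of proline synthesis (0.23), rose, and the transcription factor gene ATF3 fell (-0.32). Relative to No CM, 3 rose in Cont CM, ATF3 (0.29), EIF2AK4, which encodes GCN2 itself (0.20), and ATF4 (0.16), and 15 did not pass, a share called near the 16.3% of all genes. Only CEBPB rose in TIS CM against No CM (0.27), and 17 did not pass. By unadjusted p under 0.05, 9 of the 18 genes differed in TIS CM against No CM, against 13.6% of all genes. On the same measure 9 differed in Cont CM against No CM and 6 in TIS CM against Cont CM, against 31.3% and 23.4% of all genes. The median log2 difference of the list was 0.03, 0.08 and 0.14 in the 3 comparisons.

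Of 20 tested cytosolic aminoacyl-tRNA synthetases, which charge tRNA with the amino acids taken up, QARS alone was called in TIS CM against Cont CM (0.19), and in Cont CM against No CM TARS (0.36), NARS (0.16) and HARS (0.16) were higher and QARS lower (-0.19), both counts near the 4.48% and 16.3% of all genes called. None was called in TIS CM against No CM by limma, though 7 of the 20 had an unadjusted p under 0.05, as did 13.6% of all tested genes. Of 12 tested genes of glutamine, glutamate and glutathione metabolism, 2 were higher in TIS CM than in Cont CM (2.9% of all genes). These were GGT5, which splits extracellular glutathione conjugates (0.36), and glutathione reductase GSR (0.26). Against No CM, 4 were lower in Cont CM, GGT5 (-0.77), GGT1 (-0.43), GSR (-0.40) and the glutathione synthetase GSS (-0.13), and none was higher, where 8.56% of all genes were called lower and 7.77% higher. GPT2 was higher (0.28) and GGT5 lower (-0.41) in TIS CM against No CM, and 10 did not pass, where 0.855% of all genes were called. Of 16 tested amino acid carriers of other families, 2 were higher in TIS CM than in Cont CM (2.9% of all genes). These were the mitochondrial carrier of basic amino acids SLC25A29 (0.34) and PQLC2, the lysosomal exporter of basic amino acids (0.20). Both were lower in Cont CM against No CM (-0.39 and -0.23). SLC17A5, a lysosomal carrier of sialic acid and acidic amino acids, was higher there (0.19), a share called near that of all genes. None of the 16 was called in TIS CM against No CM, where 1 had an unadjusted p under 0.05, against 13.6% of all genes.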

How the data were processed

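The authors deposited FPKM for 58735 genes in 9 libraries, with gene length, position and biotype. Poly-T bead capture and random hexamer priming are per the labels' protocols, and the tools are per the submitters' processing notes, which give no roles or settings: DESeq2 1.20.0, featureCounts 1.5.0-p3, HISAT2 2.0.5 and fastp, with build hg38. Strand and multiple alignment settings are not given in the sources used here. Multiplied by gene length, 100% of FPKM values were whole multiples (within 0.01) of 1 step in each library, which gave fragment counts of 32636708 to 39189036 per library. FPKM depend on the gene length used and on scaling that assumes most genes do not change.

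Differences were tested with limma 3.58.1 (R 4.3.3) on log2(FPKM + 0.5) of all 9 libraries with group means and an intensity trend, on the 13912 genes with a mean of at least 0.5 FPKM, with Benjamini-Hochberg adjustment over all of them. Voom was run on the recovered fragments as an alternative. Scripts were tested on simulated data. Genes named with every library are those called in any comparison and a set of 12 main carriers. Gene lists and members were chosen with earlier results of these data known. Promoter sequences are from RefSeq (GRCh38.p14). GC content was taken from GENCODE transcripts. Same-numbered libraries did not deviate together (correlations from -0.187 to 0.0838, 0 of 9 pairs over 0.1), so the numbers were not used as pairs. Alternatives were other pseudocounts, filters and scalings, 2-group fits, a replicate block, removal of the GC and length trend, robust variances and each library left out. A few items are not reported here. No sample was left out of the main fit.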

Additional observations from a re-analysis of the deposited data

How the results depend on the processing

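None of the 14 calls of carrier genes changed direction under any alternative run. Comparing TIS CM with Cont CM, the 4 called carrier genes became 2 with no filter on low values, 1 when only the 2 groups compared were fitted, and 0 to 5 with a library left out: 0 and 1 when TIS CM replicates 1 and 2 were omitted, 2 without TIS CM replicate 3, Cont CM replicate 2 or any No CM library, and 5 without Cont CM replicate 1. Between Cont CM and No CM the 9 stayed within 6 to 12 under the other settings and were 5 to 11 with a library left out, 5 without No CM replicate 2 or 3 or Cont CM replicate 2 or 3. Between TIS CM and No CM the 1 call became 0 with no filter, 2 with equal library sums, 3 with protein-coding genes only and 3 with voom (also with a mean of at least 10 fragments, chosen after seeing the data), and 0 to 3 with a library left out, 3 without Cont CM replicate 1 and 0 without any No CM or TIS CM library or Cont CM replicate 3. With the replicate number as a block, the called carrier genes numbered 2, 6 and 0, and with the block and the GC and length trend removed 0, 6 and 0 (in TIS CM against Cont CM SLC7A5 and SLC1A5 then had limma adjusted p = 0.0806 and 0.0883). The cause was not tested, except that a 2-group fit and an omission use fewer libraries.

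Over all tested genes, 623, 2272 and 119 were called in the 3 comparisons. For TIS CM against Cont CM the count was 207 with no filter, 995 with protein-coding genes only, 1085 with voom (1019 with at least 10 fragments), 33 in the 2-group fit, 126 with the replicate block, 173 with the GC and length trend removed, 12 with both, and 11 to 1084 with a library left out. For Cont CM against No CM it was 1242 in the 2-group fit, 1461 with the block, 1420 with the block and the trend removed, and 1075 to 2770 with a library left out. For TIS CM against No CM it was 46 with no filter, 210 with protein-coding genes only, 245 with voom (252), 331 in the 2-group fit, 4 with the block, 5 with the block and the trend removed, and 9 to 365 with a library left out. With equal library sums 41.8%, 38.1% and 20.9% of calls were higher, against 64.8%, 47.6% and 47.1%, and quantile normalization gave 53.2% in TIS CM against Cont CM.

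Differences close to 0 changed sign, none of them called. Comparing TIS CM with Cont CM, SLC38A1 was 0.070 with the GC and length trend removed, with or without the block. SLC43A1 was -0.015 with equal sums, -0.0012 with voom under both filters and -0.074 with the trend removed, with or without the block. SLC7A7 was -0.00033 with a pseudocount of 1, -0.017 with equal sums, -0.0018 with upper-quartile scaling and -0.012 with the trend removed, with or without the block. Comparing TIS CM with No CM, SLC43A3 was -0.0042, SLC3A2 -0.039 and SLC36A4 -0.014 with equal sums, and SLC3A2 -0.014 with quantile normalization. With a library left out, TIS CM against Cont CM ranged from -0.040 to 0.0058 for SLC7A1, -0.088 to 0.079 for SLC38A1, -0.031 to 0.067 for SLC7A11, -0.091 to 0.056 for SLC43A1 and -0.060 to 0.081 for SLC7A7. SLC36A1 ranged from -0.0078 to 0.076 in Cont CM against No CM and from -0.070 to 0.015 in TIS CM against No CM, where SLC3A2 ranged from -0.064 to 0.059 and SLC36A4 from -0.0031 to 0.054. A single fragment per kb corresponded to 0.0255 to 0.0303 FPKM, so genes near 0 could not be ranked.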
